A study of Mus musculus with 21 samples.

Results

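The microRNA rows described here are the entries of the deposited gene tables that stand for microRNA hairpins and that were expressed in the embryonic mouse forebrain or kidney. A row was kept when its annotation was noncoding, its symbol was that of a microRNA gene and not of a microRNA host transcript, and its mean RPKM (reads divided by the counted length and by the depth of the library) was over 1 in the 3 brain or the 3 kidney total RNA libraries. This left 78 of the 677 microRNA rows among 23827 rows in all. Of the 78 rows, 60 passed in brain and 54 in kidney, with 36 passing in both organs, 24 in brain alone and 18 in kidney alone. The rows were thus chosen by their RPKM in the total RNA libraries, so the comparison of the organs in total RNA is given as a description with no test.

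A microRNA gene is transcribed into a long primary transcript, often as an intron or exon of another gene. The nuclear enzyme Drosha and its partner Dgcr8 cut the hairpin out of that transcript, Xpo5 carries it to the cytoplasm, Dicer1 trims it to a short duplex, and an Argonaute protein uses a strand of it to find messenger RNAs through the seed, the bases near its 5′ end. The libraries here were made from polyadenylated RNA with fragments much longer than a mature microRNA and without a mark of strand. A value for a row is therefore the level of RNA from either strand that covers the hairpin, and not the level of the mature microRNA.

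All 21 libraries came from E14.5 embryos that carried Gt(ROSA)26Sor-mCherry-Rpl10a+/-, an allele that makes a red-tagged ribosomal protein from the CAGGS promoter in cells where Cre has acted. Total RNA (the transcriptome) and ribosome-bound RNA (the translatome, pulled down through the tag and called TRAP RNA) were sequenced from forebrain and from kidney of Sox2Cre+/- embryos, in which the epiblast derivatives carry the tag. TRAP RNA was also taken from forebrain and kidney of Cdh5CreERT2+/- embryos, which express the tag in endothelial cells (EC) after tamoxifen, and from forebrain of Emx1Cre+/- embryos, which express it in the Emx1 lineage of the dorsal telencephalon. Each of the 7 groups had 3 libraries, and each tissue sample held the organ of 1 to 2 embryos. Total and TRAP RNA with the same organ and number came from the same tissue sample. The Cdh5CreERT2+/- and Emx1Cre+/- groups are TRAP RNA alone and were therefore compared with Sox2Cre+/- TRAP RNA.

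The libraries held 21760652 to 79231692 reads on annotated rows. Forebrain and kidney markers were each high in their own organ, with summed RPKM of 1560 to 1650 for 6 forebrain genes in brain total RNA against 40.7 to 45.2 in kidney total RNA. The summed RPKM of 5 endothelial genes was 62.8 to 74.7 in brain TRAP RNA and 1320 to 1380 in brain EC TRAP RNA, and the 6 forebrain genes still summed to 336 to 451 in the latter. The 5 red blood cell genes summed to 185 to 428 in brain total RNA and 98.4 to 192 in brain TRAP RNA, and to 351 to 664 and 91.8 to 173 in the same 2 kinds of kidney library. Their part in the results on microRNA rows was not tested.

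Of the 78 rows, 74 could be placed on GRCm38 and 69 had a mature sequence in RefSeq (GRCm38.p6). The hairpin of Mir3064, the row with the most reads, is shown first, because its place in its host gene matters for what was counted. It lies on chromosome 11 at chr11:106782693-106782759 on the minus strand, with the capitals marking the 2 mature arms.

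Mir3064 hairpin: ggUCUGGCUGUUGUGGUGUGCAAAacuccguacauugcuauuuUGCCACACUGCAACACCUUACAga

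The Mir3064 hairpin is 67 bases long, of which 1 base lies in an exon of the coding transcript of Ddx5 and the rest in the adjoining intron of that transcript. All 67 bases are exonic once Ddx5 transcripts of other types, not annotated as coding, are included. Ddx5 is an RNA helicase that itself takes part in Drosha processing. The length behind the deposited RPKM was 66 bases, which equals the part outside the coding transcript's exon. Over all rows, 57 of the 74 placed hairpins were counted in full and 17 in part, 7 of them over under 50% of their length. The hairpins were sorted by where they lie on their own strand. The whole hairpin lay in an exon of a coding transcript for 8 rows, part of it did for 9, and 23 lay at least in part in an exon of a noncoding or other transcript. Another 25 lay in introns alone, 9 had no host gene on their strand, and 4 were not placed.

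The hairpins of Mir9-1 and Mir9-2 are shown because they hold the same mature microRNAs in 2 different loci that differed in their reads. Mir9-1 is at chr3:88215598-88215686 on the plus strand in an intron of the noncoding gene Gm3764, and Mir9-2 at chr13:83738814-83738885 on the plus strand in an exon of the noncoding RNA C130071C03Rik. Capitals again mark the mature arms.

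Mir9-1 hairpin: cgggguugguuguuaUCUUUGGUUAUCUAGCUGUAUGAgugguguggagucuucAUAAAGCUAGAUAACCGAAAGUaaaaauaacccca
Mir9-2 hairpin: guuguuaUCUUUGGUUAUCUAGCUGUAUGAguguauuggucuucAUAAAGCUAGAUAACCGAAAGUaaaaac

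Among 110 different seeds (bases 2 to 8) in the mature sequences of the rows, 6 were shared by a pair of rows. The pairs are shown with the seed in capitals, since their mature products would look for the same target sites. They are both arms of Mir9-1 and Mir9-2, the Hox cluster pair Mir196a-1 and Mir196b, Mirlet7d and Mirlet7e, Mir344-2 and Mir344g, and Mir2861 and Mir3091.

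miR-9-5p (Mir9-1 and Mir9-2): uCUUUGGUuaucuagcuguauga
miR-9-3p (Mir9-1 and Mir9-2): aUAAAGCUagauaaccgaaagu
miR-196a-5p (Mir196a-1): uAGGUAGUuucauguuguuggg
miR-196b-5p (Mir196b): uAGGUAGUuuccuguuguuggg
let-7d-5p (Mirlet7d): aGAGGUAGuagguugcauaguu
let-7e-5p (Mirlet7e): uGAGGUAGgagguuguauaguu
miR-344-5p (Mir344-2): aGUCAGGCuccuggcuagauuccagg
miR-344g-5p (Mir344g): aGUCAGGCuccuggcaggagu
miR-2861 (Mir2861): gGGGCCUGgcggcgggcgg
miR-3091-3p (Mir3091): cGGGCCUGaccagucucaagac

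The 78 rows together held 11576 reads in the 6 total RNA libraries, and these were unevenly spread. Mir3064 alone took 33.8% of them, and Mir3064 and Mir703 together 55.2%. The median row had 40 reads over the 6 libraries, 16 rows had 100 or more and 13 had under 20, so that most rows rest on few reads per library. Just inside the limit of the rule lay Mir453 at 1.002, Mir3470a at 1.016 and Mir1196 at 1.059 RPKM in the organ where each was higher. Just outside it lay Mirlet7i at 0.9966, Mir5119 at 0.996 and Mir466i at 0.952 RPKM.

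In total RNA, Mir3064 and Mir703 were the 2 highest rows in both organs. Mir3064 had RPKM of 246.1, 248.4 and 263.2 in the 3 brain libraries and 160.2, 171.5 and 197.2 in the 3 kidney libraries. Mir703, which has no host gene on its own strand and lies opposite an intron of Cfap299 (chr5:98475556-98475664, minus strand), had RPKM of 62.65, 74.47 and 70.27 in brain and 93.07, 101.4 and 110 in kidney. Thus all brain libraries were above all kidney libraries for Mir3064 and below them for Mir703, with log2 differences of brain minus kidney of 0.71 (SE 0.08) and -0.36 (SE 0.1). The next row was Mir9-2 in brain (26.26 ± 1.578 RPKM) and Mir196a-1 in kidney (27.21 ± 3.441, SD, n = 3), each with little or no signal in the other organ. Mir1982, which overlaps an exon of a transcript of the antizyme gene Oaz1, had 18.72 ± 3.677 RPKM in brain and 19.14 ± 2.599 in kidney (SD, n = 3), and its groups overlapped.

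**Figure D1:**
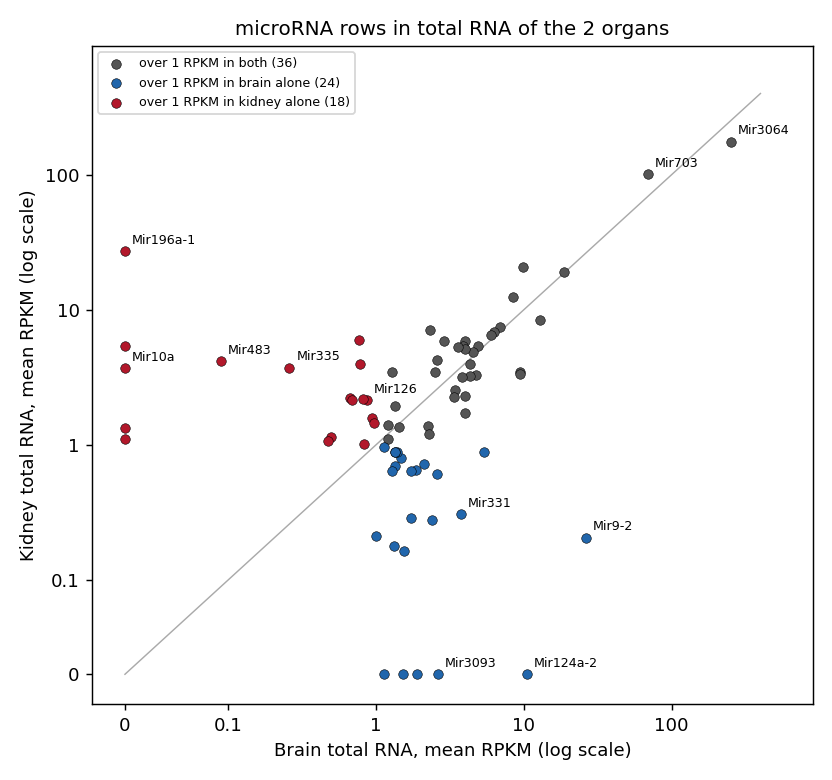
Mean RPKM of the 78 microRNA rows in brain total RNA (horizontal, log scale) against kidney total RNA (vertical, log scale), 3 libraries each, with rows that had no read drawn at 0. The 5 rows on the bottom edge had no kidney read, the 5 on the left edge had no brain read, and Mir3064 and Mir703 stand alone at the upper right.

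Members of tissue-restricted families were among the rows that differed between the organs. Mir124a-2, a copy of the neuronal microRNA miR-124, had RPKM of 10.9, 11.03 and 9.501 in brain total RNA and no read in kidney total RNA, at least 53.0-fold lower in kidney by the limit that 3 reads over the group would set. Mir9-2, a copy of the neural progenitor microRNA miR-9, had RPKM of 26.54, 24.56 and 27.68 in brain and 0.273, 0.3433 and 0 in kidney (284 against 2 reads, a ratio of 131 with a 95% counting interval of 36.0 to 1090). Mir196a-1, which lies in the Hox gene region of chromosome 11 (chr11:96265164-96265265, plus strand), had no read in any brain library and RPKM of 25.25, 25.2 and 31.19 in kidney, at least 120-fold higher there. Mir10a, of the same cluster, had 49 reads in kidney total RNA and none in brain (at least 17.7-fold), and Mir196b, in a transcript of Hoxa9, had 11 and none (at least 3.97-fold).

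Of the list of tissue-restricted microRNAs, 3 of the 11 neural rows (Mir9-1, Mir9-2 and Mir124a-2) and 3 of the 6 Hox cluster rows (Mir10a, Mir196a-1 and Mir196b) were members. The endothelial row Mir126 was one as well. None of the 5 epithelial, 2 erythroid, 5 muscle or 4 kidney and gut rows reached the limit, and the highest of the kidney and gut rows, Mir194-1, had a mean of 0.8843 RPKM in kidney total RNA. The 3 Hox cluster members had no read in any of the 12 forebrain libraries. In the 9 kidney libraries Mir9-1 had no read, Mir9-2 had 2 in total and 1 in TRAP RNA, and Mir124a-2 had 1 in TRAP RNA.

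Across the 78 rows, 17 were higher in all 3 brain than in all 3 kidney total RNA libraries, 16 were lower in all of them, and 45 overlapped. Over all 19841 rows with a read, these shares were 30.7% and 43.7%. By the fitted log2 differences, which for a row without a read depend on a prior count, 14 rows were over 4-fold higher in brain and 9 over 4-fold lower, against 12.8% and 11.3% of all rows. Nothing is read from these shares, since the same libraries chose the rows. Other rows with a large difference, picked after their values were seen, were Mir3093 (35 brain reads and none in kidney), Mir331 (54 and 3 reads, a ratio of 16.6 with a 95% counting interval of 5.4 to 83.2), Mir483 (1 and 39 reads, a ratio of 42.2 with an interval of 7.14 to 1710) and Mir335 (4 and 43 reads). Mir483 and Mir335 are intronic to the imprinted growth gene Igf2 and the imprinted gene Mest, and both hosts were also lower in brain, from 1003 ± 32.6 RPKM in kidney to 80.5 ± 13.6 in brain for Igf2 and from 1063 ± 17.3 to 139.7 ± 4.15 for Mest (SD, n = 3).

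The next question was which of these RNAs were also bound to ribosomes. These sums are in RPM, reads divided by the depth of the library but not by length, and cannot be compared with RPKM. The rows as a whole summed to 41.72 to 43.87 RPM in brain total RNA and 16.08 to 17.69 in brain TRAP RNA. In kidney the same sums were 39.16 to 44.92 and 17.52 to 19.57 RPM, and in the 3 other TRAP groups they lay between 12.58 and 18.74. The rows were chosen for their level in total RNA, which favours a higher sum there, and Mir3064 carries much of the gap, with 2513 reads in brain total and 84 in brain TRAP RNA, and 1401 and 62 in kidney. In bulk RNA, fewer cells of a type and less RNA per cell cannot be told apart, and TRAP values are relative to the ribosome-bound RNA of the tagged cells.

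Each test was kept off the libraries that chose its rows. The brain difference was tested over the 54 rows that passed in kidney total RNA, whatever their brain level. The kidney difference was tested over the 60 rows that passed in brain total RNA. These rows were still chosen for a total RNA level, and the shares of all rows below were not limited in that way. A row low in TRAP against total RNA in 1 organ may be so in the other, so the choice can still favour lower TRAP values. How far it did was not tested. Of the 54 rows, 49 had a read in the 6 brain libraries. In edgeR's quasi-likelihood test with Benjamini-Hochberg adjustment over all rows, 15 of the 49 were lower in TRAP RNA at an adjusted p under 0.001 (30.6%, against 18.5% of all 19446 rows tested) and 1 was higher (against 18.6% of all rows). At an adjusted p under 0.05, 27 were lower and 3 were higher, with backgrounds of 28.1% and 27.7%. There was no brain TRAP read at all for 22 of the 49, against 5.23% of all rows. That share was not matched for read number. A row with few total RNA reads, such as Mir483 with 1 in brain, can lack TRAP reads by its low count alone. The median log2 difference of TRAP minus total RNA was -3.62, or -1.52 over 48 rows with those lacking a read set at their bound, and -0.01 over all rows.

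In kidney, 56 of the 60 rows had a read. Of these, 8 were lower in TRAP RNA (14.3%, against 15.8% of all 19336 rows tested), a share near that of all rows at this threshold. In edgeR's test none was higher (against 14.9%), with 1 at an unadjusted p under 0.05 and none by DESeq2. A total of 21 were lower and 1 was higher at an adjusted p under 0.05, with backgrounds of 26.1% and 24.3%. The median log2 difference was -2.36, or -1.6 over 49 rows with bounds, against -0.03 over all rows. There was no kidney TRAP read for 18 of the 56, against 4.93% of all rows. That share was again not matched for read number, and some of the 18 had few total RNA reads, such as Mir99a with 1 and Mir485 with 2. The fit behind these counts did not use the pairing of the libraries by tissue sample, so the share near that of all rows is that of an unpaired fit. With the tissue sample as a block, 12 rows were lower and 1 was higher.

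The sequencing lanes differed between the 2 kinds of library. With the lane in the fit, 10 rows were lower and none higher in brain. In kidney, where 1 of the 3 TRAP libraries shared a lane with the total RNA libraries, 1 row was lower, and this was Mir3064 (log2 difference -3.64, adjusted p = 1.7e-05, edgeR). Leaving out a library gave 11 to 15 lower rows in brain and 3 to 7 in kidney, the fewest without brain TRAP library 1 and kidney TRAP library 2. The shares of all rows under these fits, and with the tissue sample as a block, are not given here. Their counts are therefore not set against a background. The kidney TRAP libraries were also the shallowest, at 21760652 to 24605124 reads.

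**Figure D2:**
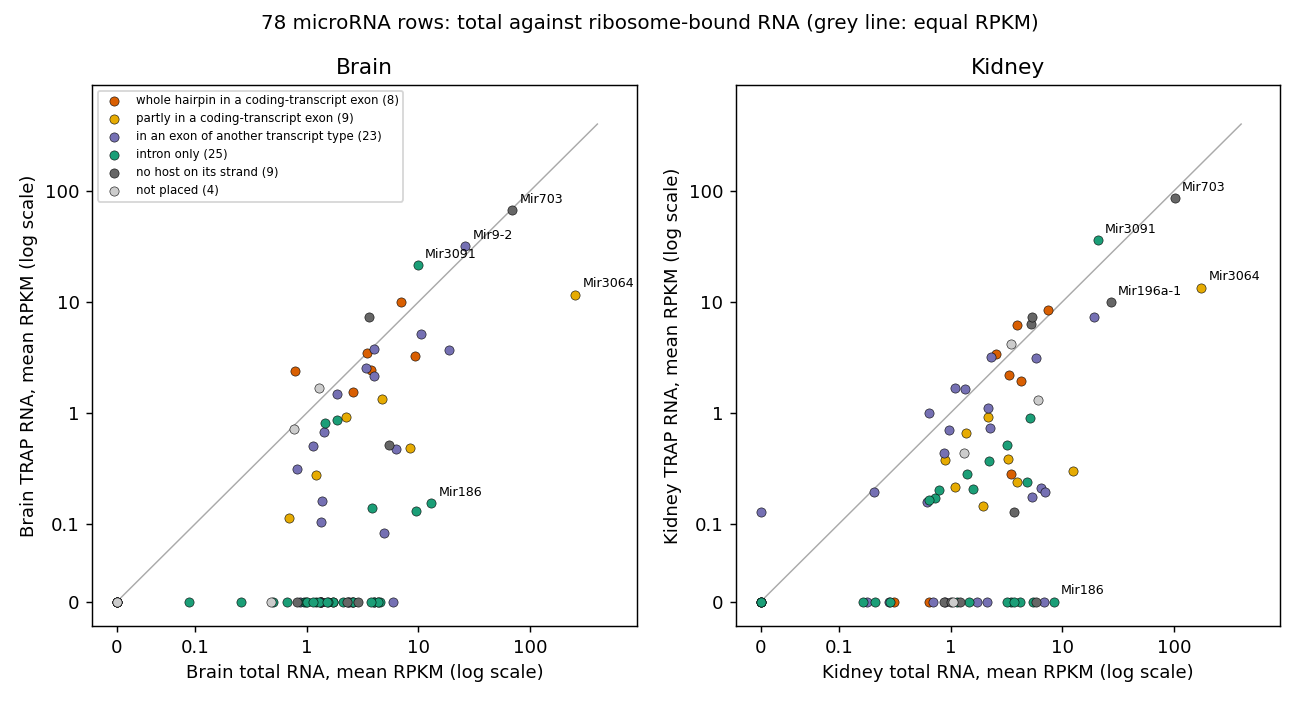
Mean RPKM of the 78 microRNA rows in total RNA (horizontal, log scale) against TRAP RNA (vertical, log scale) of brain (left) and kidney (right), colored by the position of the hairpin, with rows that had no read drawn at 0. Mir3064 and Mir186 lie far below the line of equal RPKM in both organs, Mir703 lies near it, and Mir3091 lies above it.

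The largest loss in reads was that of Mir3064. In brain TRAP RNA its RPKM was 13.26, 11.41 and 10.3, and in kidney TRAP RNA 14.87, 11.55 and 13.98, against levels above 160 in every total RNA library. The log2 difference was -3.7 (SE 0.16, adjusted p = 5.4e-08, edgeR) in kidney, with the 3 pairs of the same tissue at -3.43, -3.89 and -3.82. In brain the pairs were at -4.21, -4.44 and -4.68. Its host Ddx5 fell less, by 0.73 (SE 0.05, adjusted p = 1.5e-06, edgeR) on the log2 scale in kidney and by 0.51 (SE 0.06, adjusted p = 3e-06, edgeR) in brain. Mir3064 was thus the row with the most reads in total RNA, and stood at 11.65 ± 1.497 RPKM in brain TRAP RNA against 183.4 ± 9.994 for Ddx5 (SD, n = 3).

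Mir703 had about as many reads in TRAP as in total RNA for the depth of the libraries. Its RPKM was 57.61, 72.08 and 71.84 in brain TRAP RNA and 80.69, 94.05 and 82.51 in kidney TRAP RNA, so that the groups overlapped with those of total RNA in both organs. The log2 difference was -0.02 (SE 0.12, adjusted p = 0.89, edgeR) in brain and -0.24 (SE 0.11, adjusted p = 0.087, edgeR) in kidney. It was the highest row in all 5 TRAP groups.

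**Figure D3:**
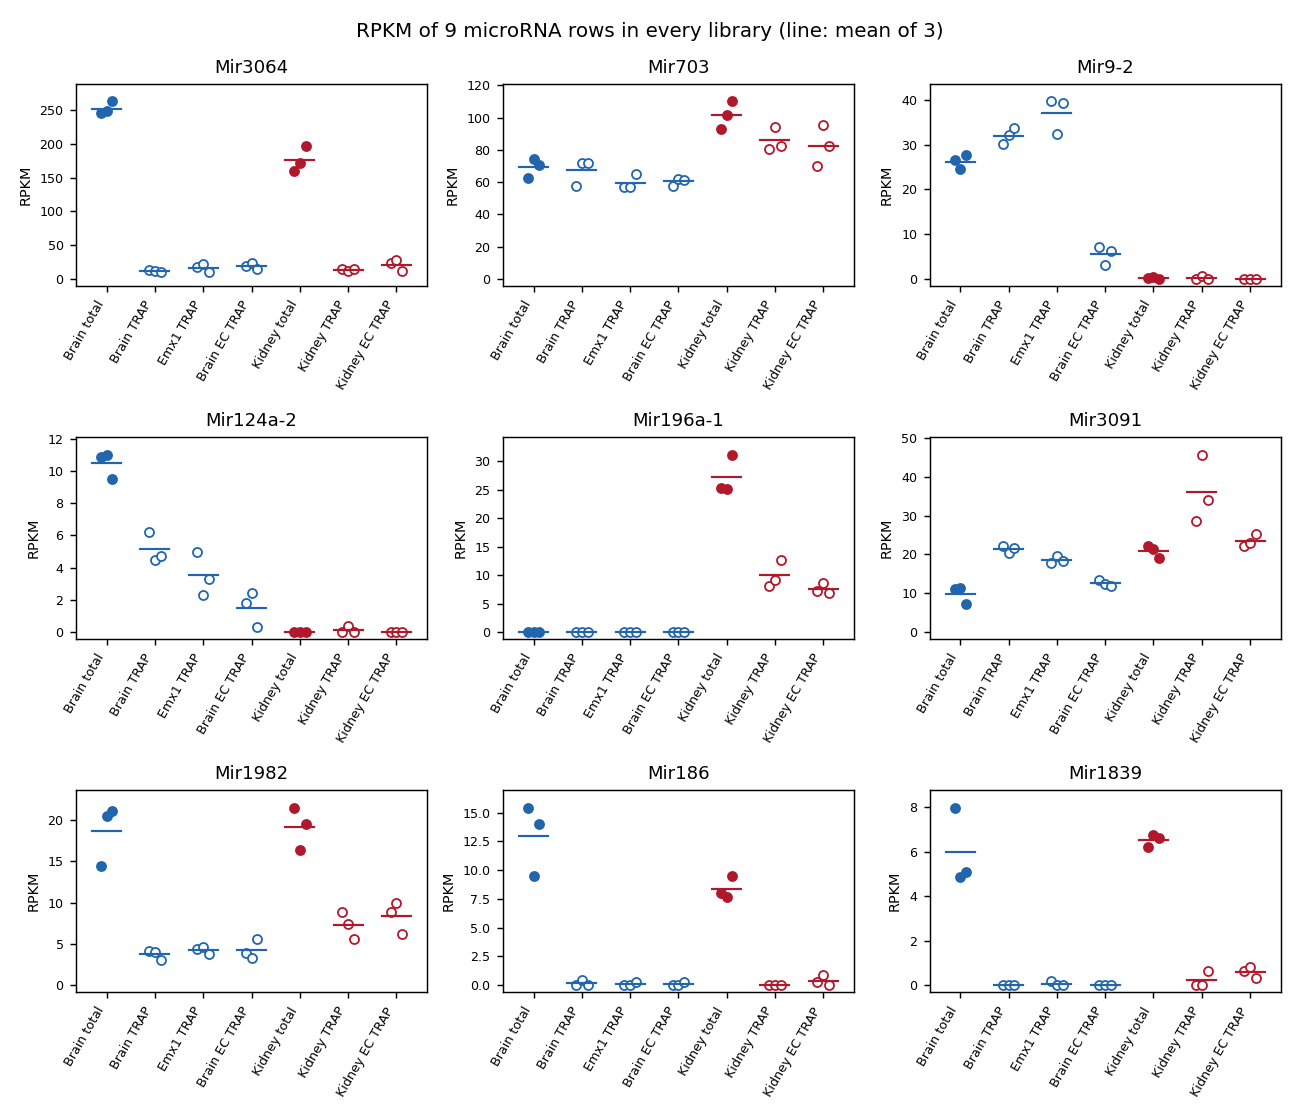
RPKM (vertical axes, linear) of 9 microRNA rows in each of the 21 libraries, with brain in blue and kidney in red, total RNA as filled and TRAP RNA as open circles, and a line at the mean of each group of 3. Mir3064, Mir186 and Mir1839 fall in every TRAP group, Mir703 has overlapping total and TRAP values in both organs, Mir3091 is higher in Sox2Cre TRAP than in total RNA, and Mir9-2 and Mir196a-1 are each near or at 0 in the other organ.

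Many rows in introns alone were without TRAP reads. Of the 15 such rows tested in brain, 6 were called lower, 1 was called higher and 11 had no TRAP read. In kidney 15 were tested, with 2 called lower, none higher and 7 without a TRAP read. Over all rows, 18.5% were called lower in brain and 15.8% in kidney, so that the kidney count is near the background, and the classes hold too few rows to read more from such counts. Mir186, in an intron of the splicing factor gene Zranb2 (chr3:157544279-157544349, plus strand), had RPKM of 15.43, 9.465 and 14.03 in brain total RNA and 0, 0.461 and 0 in TRAP RNA (136 against 1 reads, a ratio of 94.9 with a 95% counting interval of 16.7 to 3770, and adjusted p = 8.7e-07, edgeR). In kidney it had 8.03, 7.659 and 9.503 in total RNA and no TRAP read, at least 13.7-fold lower (adjusted p = 0.00013, edgeR). Zranb2 itself fell by 0.49 (SE 0.05) in brain and by 0.31 (SE 0.04) in kidney on the log2 scale, and no TRAP library reached the total RNA level of Mir186.

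Mir7-1, in an intron of the RNA-binding protein gene Hnrnpk, had 18, 27 and 17 reads in brain total RNA and none in brain TRAP RNA, at least 14.4-fold lower (adjusted p = 2.4e-05, edgeR). Hnrnpk did not pass the test in brain, at 138.5 ± 4.42 RPKM in total and 146.8 ± 2.33 in TRAP RNA (SD, n = 3). Mir1898, in an intron of Zfr, a zinc finger RNA-binding protein gene, had 22, 19 and 12 reads against none (at least 12.3-fold lower, adjusted p = 0.00011, edgeR, and 0.0013 without brain TRAP library 1, the highest over the alternatives). Mir3060, in an intron of Rnf215, had 118 reads against 1 (a ratio of 82.3 with an interval of 14.5 to 3280, adjusted p = 6.2e-07, edgeR).

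Mir677, in an intron of the ATP synthase gene Atp5b, had 44 brain reads against 1 (a ratio of 30.7 with an interval of 5.23 to 1240, adjusted p = 0.00034, edgeR). This call was lost without brain total library 1 or brain TRAP library 1 or 2 (adjusted p = 0.0016, 0.0047 and 0.0016) and in DESeq2 (0.0012). In kidney Mir677 had 52 reads in total and none in TRAP RNA, at least 9.87-fold lower (adjusted p = 0.00041, edgeR), a call lost without kidney total library 1 or 2 or any of the 3 kidney TRAP libraries (adjusted p of 0.0012 to 0.0013). The ATP synthase host stood at 496.5 ± 21.1 RPKM in brain total and 513.7 ± 36.0 in brain TRAP RNA (SD, n = 3).

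Mir3100, in an intron of the muscle kinase gene Dmpk, had 44 brain reads in total RNA and none in TRAP RNA, at least 10.2-fold lower (adjusted p = 0.00014, edgeR, and 0.0013 without brain TRAP library 1). Here the host also fell, by 3.39 (SE 0.11) on the log2 scale.

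Mir3091 was the exception among the intronic rows. It lies in an intron of Rps21, the gene of a small ribosomal subunit protein (chr2:180257536-180257611, plus strand). Its RPKM was 11.04, 11.4 and 7.199 in brain total RNA and 22.17, 20.24 and 21.71 in brain TRAP RNA, with all TRAP libraries above all total RNA libraries, and it was the row called higher in brain. The log2 difference was 1.14 (SE 0.21, adjusted p = 0.00029, edgeR), and the call was lost without brain TRAP library 1 or 3 (adjusted p = 0.0033 and 0.0011) and with the lane in the fit (0.99, adjusted p = 0.019). In kidney its RPKM rose from 22.25, 21.47 and 19.02 to 28.53, 45.71 and 33.99, a log2 difference of 0.78 (SE 0.2) that passed an adjusted p under 0.05 (0.0086, edgeR) but not 0.001. Rps21 rose as well, by 1.32 (SE 0.07, adjusted p = 1.3e-09, edgeR) in brain and 1.01 (SE 0.04, adjusted p = 5.1e-08, edgeR) in kidney. Mir2861, which shares its seed, had 49 reads in brain total and 19 in brain TRAP RNA, and 24 and 18 in kidney.

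Rows partly in a coding exon held Mir3064 and 8 others. Of 8 tested in each organ, 3 were called lower in brain and 2 in kidney, beside the 18.5% and 15.8% of all rows. Mir5121 lies within the ribosomal protein gene Rpl13a and the overlapping gene Gm45713. It shares 1 base with a coding-transcript exon there and was counted over 45 of its 74 bases. It had 21, 16 and 19 reads in brain total RNA and 3, 0 and 0 in TRAP RNA (a ratio of 13.0, interval 4.23 to 65.0, adjusted p = 0.00038, edgeR). This call was lost without brain total library 1 or brain TRAP library 2 or 3 (adjusted p = 0.0018, 0.0015 and 0.0015). In kidney it had 32, 18 and 19 against 1, 0 and 0 (a ratio of 39.3, interval 6.82 to 1570, adjusted p = 0.00016, edgeR, and 0.001 and 0.0011 without kidney TRAP library 2 and 3). Rpl13a rose at the same time, by 0.79 (SE 0.07) in brain and 0.45 (SE 0.06) in kidney on the log2 scale. For 7 of the 9 rows of this class, the counted length equalled the bases outside the coding exon to within 0.6 bases.

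Of the rows wholly in an exon of a coding transcript, 6 were tested in brain, where 1 was called lower (18.5% of all rows were) and 1 had no TRAP read. Of 7 tested in kidney none was called in either direction (15.8% of all rows were lower and 14.9% higher) and 2 had no TRAP read. At an adjusted p under 0.05, 2 of the 7 were lower and none higher, against 26.1% and 24.3% of all rows. The row called lower was Mir568, in an untranslated exon of the transcription factor gene Zbtb20, with RPKM of 6.739, 11.08 and 10.36 in total and 2.372, 4.338 and 3.119 in TRAP RNA of brain. Its log2 difference was -1.54 (SE 0.32, adjusted p = 0.00078, edgeR) beside -0.92 (SE 0.16) for Zbtb20, and it lost the call with the lane in the fit (-1.05, adjusted p = 0.057), in DESeq2 (adjusted p = 0.0042), in 1 fit of all 21 libraries, with a filter on low counts, and without brain total library 2 or 3 or brain TRAP library 1 or 3. Mir707, in Akt1s1 and picked after its values were seen, had 74 reads in total and 81 in TRAP RNA of brain.

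Rows in exons of noncoding or other transcripts were called lower for 5 of 12 in brain and 4 of 20 in kidney, the latter near the background of 15.8% (18.5% in brain). Mir1839, in an exon of the noncoding RNA 2900076A07Rik, had RPKM of 7.982, 4.845 and 5.085 in brain total RNA and no read in brain TRAP RNA (at least 14.9-fold lower, adjusted p = 3.2e-05, edgeR). In kidney it had 58 reads against 1 (a ratio of 33.0 with an interval of 5.7 to 1330, adjusted p = 0.00027, edgeR, and 0.0015 and 0.0016 without kidney TRAP library 1 and 2). The host row did not pass the test, at 9.73 ± 0.36 RPKM in total and 11.17 ± 1.46 in TRAP RNA of brain (SD, n = 3). Mir25, in a transcript of the replication helicase gene Mcm7, had 80 brain reads against 4 (log2 difference -3.69, SE 0.5, adjusted p = 2e-05, edgeR, and 0.0011 with the lane in the fit, the highest over the alternatives). In kidney Mir25 had 68 reads against none (at least 12.9-fold lower, adjusted p = 0.00024, edgeR), where Mcm7 fell by 0.54 (SE 0.05).

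Mir1982 was lower in brain TRAP RNA but kept some reads there. Its RPKM went from 14.49, 20.55 and 21.12 to 4.139, 3.981 and 3.061, a log2 difference of -2.28 (SE 0.26, adjusted p = 3.9e-06, edgeR). In kidney it went from 21.52, 16.37 and 19.54 to 8.844, 7.442 and 5.61, at -1.38 (SE 0.26, adjusted p = 0.001, edgeR), which did not pass the threshold. The groups did not overlap in either organ, and the Oaz1 row was higher in TRAP RNA in both organs without passing the threshold, from 6.06 ± 0.60 to 12.6 ± 3.43 RPKM in brain and from 6.03 ± 0.70 to 12.86 ± 2.68 in kidney (SD, n = 3).

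Mir3072 lies in Mirg, the noncoding host of a microRNA cluster on chromosome 12, and had 15, 18 and 17 reads in brain total RNA and none in TRAP RNA (at least 11.6-fold lower, adjusted p = 4.6e-05, edgeR). Mirg itself fell by 5.14 (SE 0.16) on the log2 scale, from 11.23 ± 1.03 to 0.31 ± 0.02 RPKM (SD, n = 3). The 3 other rows of this host, Mir377, Mir485 and Mir453, passed the rule by their brain level alone and are given without a test, with 25, 15 and 13 reads in brain total RNA and none in brain TRAP RNA. Mir1949, with no host row in the tables, was called lower in kidney, with 60 reads against 1 (a ratio of 34.2, interval 5.9 to 1370, adjusted p = 0.00024, edgeR, and 0.0014 without kidney TRAP library 2 or 3). Its brain counts were 24 and none.

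No row without a host on its strand was called in either organ, among 5 tested in each. Over all rows, 18.5% were called lower in brain and 15.8% in kidney, and 18.6% and 14.9% higher. At an adjusted p under 0.05, 2 of the 5 were lower in each organ, against 28.1% and 26.1% of all rows. Mir684-1, picked after its values were seen, was higher in brain at that threshold, as were 27.7% of all rows. It had 46 reads in total and 67 in TRAP RNA (log2 difference 1.05, SE 0.28, adjusted p = 0.0058, edgeR). Mir126, the endothelial microRNA in a transcript of Egfl7, had 10 reads in brain total RNA and none in brain TRAP RNA (adjusted p = 0.028, edgeR).

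The rows were then set beside their host genes. In brain 39 of the rows tested had over 3 total RNA reads and a host row. The host was within 2-fold of no difference for 32 of them. By its value, or its bound where TRAP reads were lacking, the microRNA row was over 4-fold further down than its host for 15 and within 2-fold of it for 10, and for 10 without a TRAP read the bound did not reach 4-fold. In kidney 38 rows could be set beside a host, with 18 over 4-fold further down, 11 within 2-fold, and 30 hosts within 2-fold of no difference. Among rows in introns alone, 6 of 14 in brain and 6 of 12 in kidney were over 4-fold further down, and among rows wholly in a coding-transcript exon 0 of 6 and 1 of 6. These are counts of few rows and were not tested against each other.

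**Figure D4:**
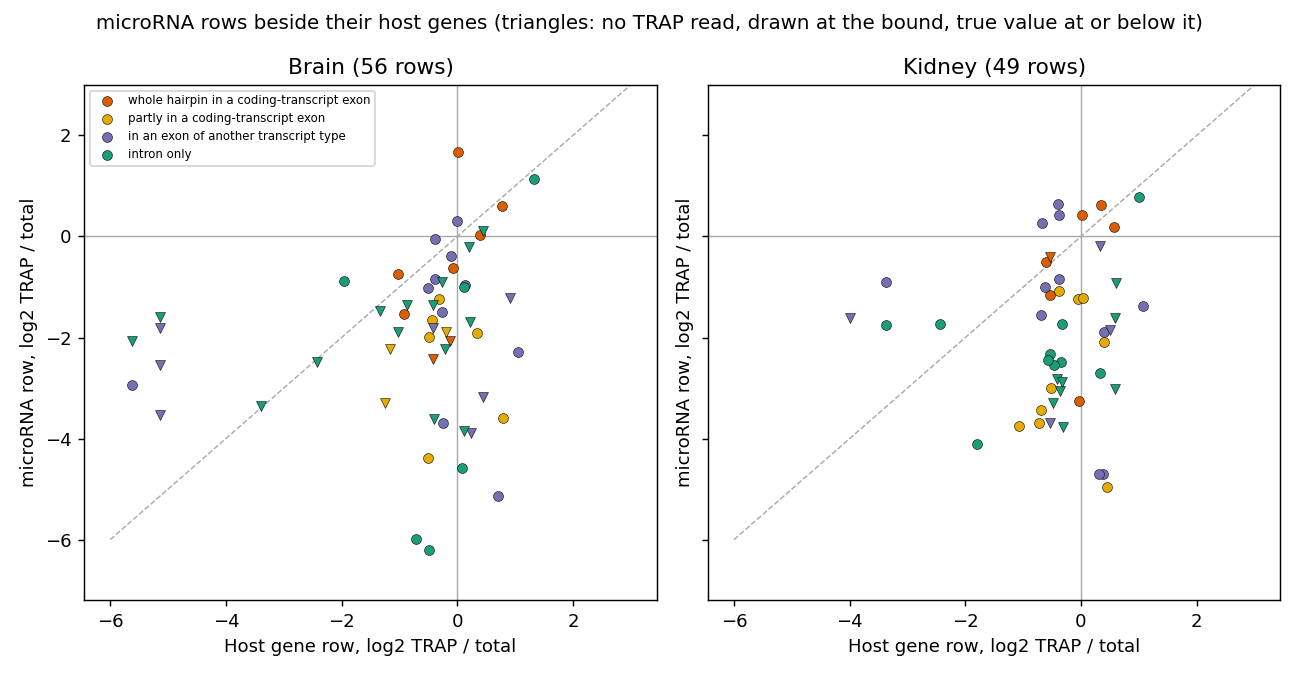
Log2 difference of TRAP minus total RNA for the host gene (horizontal) and the microRNA row (vertical) in brain (left, 56 rows) and kidney (right, 49 rows), colored by the position of the hairpin, for all rows with over 3 total RNA reads and a host row. Triangles have no TRAP read and stand at their bound, so the true value is at or below them. Mir3064 and Mir186 are among the rows far below the dashed line of equal difference, while the hosts gather near 0.

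The 2 copies of miR-9 both passed the rule through brain total RNA alone, so their values are a description and bear on no difference between classes. In brain total RNA, Mir9-1 had 7, 7 and 6 reads and Mir9-2 had 82, 100 and 102 reads. In brain TRAP RNA, Mir9-1 had none and Mir9-2 had 99, 71 and 75, so that its RPKM of 30.08, 32.28 and 33.71 lay above all 3 total RNA values. The difference was at least 4.65-fold lower for Mir9-1 and a log2 difference of 0.31 (SE 0.15) for Mir9-2. Mir9-1 rests on 20 reads in total RNA and has no host row. It had 3 reads in Emx1 lineage TRAP RNA and none in brain EC TRAP RNA. The host of Mir9-2, C130071C03Rik, had 5.17 ± 0.49 RPKM in total and 5.08 ± 0.49 in TRAP RNA (SD, n = 3). Mir3093, which lies in the same Gm3764 intron region as Mir9-1, had 35 reads in brain total RNA and none in the 9 brain TRAP libraries.

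Mir124a-2 had RPKM of 6.222, 4.505 and 4.75 in brain TRAP RNA against 10.48 ± 0.85 (SD, n = 3) in total RNA, with no overlap, while its host row 2610100L16Rik had 13.03 ± 0.48 RPKM in TRAP and 12.14 ± 0.58 in total RNA. Of the Hox cluster rows in kidney, Mir196a-1 had RPKM of 8.021, 9.137 and 12.66 in TRAP RNA, below all 3 total RNA values. Mir10a had 1 TRAP read against 49 (a ratio of 27.9 with an interval of 4.78 to 1120), and Mir196b had 10 against 11. There were 15 rows that had a read in all 12 Sox2Cre libraries, so that a ratio could be formed in each of the 6 tissue samples, and for 0 of the 15 did the ratios lie wholly on opposite sides of 0 in the 2 organs.

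The Sox2Cre TRAP libraries come from the same tissue samples as the total RNA that chose the rows, so a row that passed in 1 organ alone was likely to differ between them too. Mir9-2, Mir124a-2 and Mir196a-1 passed in that way, and their differences between the Sox2Cre TRAP libraries are a description with no p. Between the Sox2Cre TRAP libraries of brain and kidney, 57 rows had a read, of which 2 were higher in brain (against 27.2% of all 19241 rows tested) and 1 was lower (against 26.2%). The called rows were these 3, so nothing is read from the counts. Mir9-2 was higher in brain with 245 against 1 reads (a ratio of 183 with an interval of 32.6 to 7270), and Mir124a-2 with 62 against 1 (a ratio of 46.4 with an interval of 8.02 to 1860). Mir196a-1 was lower, with no read in brain against 20, 22 and 28 in kidney (at least 31.2-fold). No library of the organ with the lower level reached any library of the other for these 3 rows. A difference for Mir3064 was not detectable there, at 11.65 ± 1.497 and 13.47 ± 1.718 RPKM (SD, n = 3), with a log2 difference of 0.01 (SE 0.26, adjusted p = 0.99, edgeR), although its total RNA level was higher in brain. With a threshold of 0.05, 4 rows were higher and 4 were lower, against 34.3% and 34.4% of all rows.

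The host row of Mir9-2, C130071C03Rik, was higher in brain TRAP RNA by 6.71 (SE 0.27, adjusted p = 4.5e-11, edgeR) on the log2 scale, at 5.08 ± 0.49 against 0.05 ± 0.02 RPKM (SD, n = 3). Hoxa9, the host of Mir196b, had 19.71 ± 1.78 RPKM in kidney TRAP RNA and no read in brain TRAP RNA.

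The EC TRAP libraries came from other embryos. Mir9-2 and Mir196a-1 had entered through the organ where they are high, so their direction in EC TRAP RNA is no independent support for a difference between the organs. Their differences are given as a description with no p. Of 65 rows tested, 1 was higher in brain EC (against 20.1% of all 19238 rows) and 1 was lower (against 16.9%). The called rows were Mir9-2 and Mir196a-1, so nothing is read from these counts. Mir9-2 had 32, 12 and 26 reads in brain EC and none in kidney EC (at least 16.4-fold), and it was no longer called without brain EC library 1 or 3. At an adjusted p under 0.05, 5 rows were higher and 6 lower, against 30.5% and 29.1% of all rows. Mir196a-1 had no read in brain EC and 33, 29 and 29 in kidney EC (at least 43.1-fold). Forebrain markers were still read in brain EC TRAP RNA, as given above, and their part in the level of Mir9-2 was not tested.

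Within the forebrain, Mir9-2 was lower in EC TRAP RNA than in Sox2Cre TRAP RNA. Its RPKM was 7.165, 3.128 and 6.288 against 30.08, 32.28 and 33.71, a log2 difference of -2.22 (SE 0.26). C130071C03Rik was lower too, by 1.86 (SE 0.14). Mir9-2 had passed the rule through brain total RNA alone, from the same tissue samples as this Sox2Cre TRAP RNA. Its difference is therefore a description with no p. Mir9-2 was the only row of 56 called in this comparison, where 24.8% of all 19103 rows were higher and 21.4% lower. No row was called higher by edgeR or DESeq2, with 3 at an unadjusted p under 0.05. At an adjusted p under 0.05, 1 row was higher and 5 were lower, against 32.6% and 31.0% of all rows. The higher row was Mir3064, with RPKM of 18.32, 23.89 and 14.77 in EC and 13.26, 11.41 and 10.3 in Sox2Cre TRAP RNA (log2 difference 0.97, SE 0.24, adjusted p = 0.0034, edgeR). In Emx1 lineage TRAP RNA Mir3064 had 16.99, 21.96 and 10.58 RPKM, which overlap the EC values.

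In the Emx1 lineage no row was called against Sox2Cre brain TRAP RNA, among 47 tested. Both edgeR and DESeq2 gave none in either direction, none had an unadjusted p under 0.05 in edgeR, and 9.2% of all 19006 rows were higher and 12.8% lower (22.5% and 22.6% at an adjusted p under 0.05). Mir9-2 had 39.72, 32.38 and 39.32 RPKM in the Emx1 lineage, a log2 difference of 0.29 (SE 0.14), and Mir124a-2 had 4.971, 2.312 and 3.29. Both had passed the rule through brain total RNA alone, so these values are a description with no p. In kidney EC TRAP RNA no row of 63 was called against Sox2Cre kidney TRAP RNA by either tool, with 4 higher and none lower at an unadjusted p under 0.05 in edgeR, and 16.7% of all 18940 rows higher and 15.0% lower. At an adjusted p under 0.05, 1 row was higher and none lower, against 27.6% and 27.9% of all rows. Mir196a-1 had 7.29, 8.684 and 6.913 RPKM in kidney EC and 9.94 ± 2.42 (SD, n = 3) in Sox2Cre TRAP RNA, with a log2 difference of -0.03 (SE 0.29). It had passed the rule through kidney total RNA alone, so this too is a description with no p.

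Mir126 marks endothelial cells, and its host was strongly enriched there while the row itself had few reads. Egfl7 rose from 30.97 ± 2.47 to 393.9 ± 39.6 RPKM in brain EC TRAP RNA (SD, n = 3), by 3.96 (SE 0.1, adjusted p = 1.4e-12, edgeR) on the log2 scale. Mir126 had 1, 0 and 3 reads in brain EC, none in brain TRAP RNA and 1 in kidney EC TRAP RNA, and was not called.

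Of the listed genes that make and use microRNAs, 29 had a row. In brain TRAP RNA against total RNA 4 were higher, 12 were lower and 13 did not pass, with a median log2 difference of -0.24 against -0.01 over all rows, of which 18.6% were higher and 18.5% lower. In kidney 2 were higher, 12 lower and 15 did not pass, against 14.9% and 15.8% of all rows. Of the processing genes, Drosha was at 54.9 ± 2.502 RPKM in brain total and 64.7 ± 3.11 in TRAP RNA (SD, n = 3), a log2 difference of 0.27 that just passed (SE 0.06, adjusted p = 0.00099, edgeR). Its partner Dgcr8 was lower by 0.54 (SE 0.05) in brain and 0.91 (SE 0.04) in kidney, and the nuclear export receptor Xpo5 was lower by 1.65 (SE 0.06) and 1.16 (SE 0.05). Ddx17, a helicase close to Ddx5, was lower by 1.3 (SE 0.06) and 1.16 (SE 0.06).

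Between the TRAP libraries of the organs, 12 of the 29 were higher in brain, 6 lower and 11 did not pass, against 27.2% and 26.2% of all rows. The Argonaute genes were divided, with Eif2c1 (Ago1) and Eif2c4 (Ago4) higher in brain by 1.07 (SE 0.07) and 2.23 (SE 0.09) on the log2 scale, and Eif2c2 (Ago2) and Eif2c3 (Ago3) lower by 0.84 (SE 0.12) and 0.64 (adjusted p = 0.00047, edgeR). Trim71, a regulator in the let-7 pathway, was lower in brain by 4.14 (SE 0.19), at 0.07 ± 0.01 against 1.5 ± 0.07 RPKM (SD, n = 3). In brain EC against brain TRAP RNA 7 were higher and 3 lower, near or below the 24.8% and 21.4% of all rows. Lin28b, which blocks the processing of let-7, rose by 1.38 (adjusted p = 5.1e-05, edgeR) and Dicer1 by 0.76 (adjusted p = 2.8e-06, edgeR). In kidney EC 6 were higher and none was lower, against 16.7% and 15.0% of all rows, with log2 differences of 1.33 (SE 0.08) for Lin28b and 0.68 (SE 0.08) for Dicer1. Scaling by total counts alone lowers the median of all rows in these EC comparisons by more than 0.1, as given in the closing section, and these 4 differences exceed that shift.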

How the data were processed

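Each of the 21 deposited tables gives, per RefSeq row, an RPKM value and a read count. The authors mapped TruSeq reads with RUM to GRCm38 (mm10), counted reads and computed RPKM with rpkmforgenes on the refGene annotation, without pooling libraries, so the deposited counts are raw reads and the deposited RPKM values are the authors' own. The kit does not mark strand. Counted length was taken as reads over RPKM and the library total. Counts were tested in edgeR 4.0.16 (R 4.3.3) with TMM scaling and the quasi-likelihood test, for the 6 libraries of each pair of groups, on rows with at least 1 read. P-values were adjusted by Benjamini-Hochberg over all rows, and a row was called at an adjusted p under 0.001, the threshold of the study. These fits had no block for the tissue sample. SE is the log2 difference over the square root of F. For a group without reads, bounds use 3 reads over the group. Ratios with 1 to 3 reads have exact 95% intervals. Both cover counting error only. On simulated counts, 192 of 200 changed rows were found in the brain test (19139 rows) and 188 of 200 in the kidney test (19033 rows), with 0 false calls. Of those with few reads, 20 of 28 and 26 of 38 were found. The changed rows had a mean of at least 3 reads per library and changes of 4-fold or more. All simulated rows had the same setting for the spread between libraries. How far these shares hold for the deposited counts was not tested.

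The members and lists were chosen with earlier results of these data known. Named rows are Mir3064, the 10 with most total RNA reads, the largest called changes per comparison, rows called higher in TRAP RNA, those at the limit of the rule, and tissue-restricted members, with their hosts. Position classes, and the host row used where the annotation held several hosts, were chosen after the data were seen. Positions and hosts come from GENCODE (GRCm38), and sequences from RefSeq.

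Total and TRAP libraries of the same number came from the same tissue sample, and libraries of a group from different tissue samples, per the study's sample list, which also gives the lanes. Their deviations from the group means correlated at 0.371 to 0.609 in brain and 0.541 to 0.607 in kidney, against -0.409 to -0.135 otherwise. Alternatives were other scaling (RLE, total counts), DESeq2 1.42.0, a count filter, 1 fit of 21 libraries, the replicate block, sequencing lane, a threshold of 0.05, and leaving out each library.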

Additional observations from a re-analysis of the deposited data

How the results depend on the processing

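The rows called higher in brain TRAP RNA against total RNA went from 1 to 0 with the lane in the fit and to 3 at an adjusted p under 0.05, and were 0 to 1 on leaving out a library (0 without brain TRAP library 1 or 3). Those called lower went from 15 to 27 at 0.05 and were 11 to 15 on leaving out a library. In kidney the rows called higher went from 0 to 1 with the replicate block, in 1 fit of all 21 libraries and at 0.05. The rows called lower in kidney went from 8 to 1 with the lane and to 21 at 0.05, and were 3 to 7 on leaving out a library, with 5, 3 and 4 without kidney TRAP library 1, 2 and 3. At 0.05, between brain and kidney TRAP RNA 4 rows were higher and 4 lower, in brain EC 1 was higher and 5 lower, in kidney EC 1 was higher, and between the EC groups 5 were higher and 6 lower. The row higher in brain EC than in kidney EC was lost with the replicate block (0), which there joins numbers only, and without brain EC library 1 or 3 (0 to 1 over libraries), and 1 fit of all libraries gave 2. The replicate block moved no other count by over 1.5 times. For the alternative fits, the shares of all rows are not given here. No called value changed its direction under these alternatives. For single rows, 357 values under alternatives stayed on the same side of the threshold and 44 lost the call. The cause of these changes was not tested, apart from the thresholds themselves. With the lane in the fit, the other 7 rows called lower in kidney lost the call. Total-count scaling moved the median of all rows to -0.2 between brain and kidney TRAP RNA, -0.2 in total RNA, -0.3 in brain EC and -0.41 in kidney EC. Most rows have few reads per library, which limits what a lack of a call can show.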
